A study of Rattus norvegicus with 32 samples.

Results

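The transcripts of 6 genes that build and degrade muscle glycogen were followed in rat gastrocnemius: Pygm, Phka1, Phkg1, Gys1, Gyg1 and Pgm1. They were chosen by gene symbol for their place in the pathway, with earlier results of these data known. All 6 were among the 12901 genes of the count table, and all 6 passed the filter on low counts that left 11594 genes for testing. RNA came from the calf muscle of 20-week-old male rats, either controls (also called wild-type in the labels) or UCP1 knockouts, which lack the proton channel that brown fat uses to make heat. Muscle was taken either without cold exposure, at room temperature, or after rats had spent 2 weeks at 4 °C, and the series title describes the animals as chow-fed. This gives 7 libraries of controls at room temperature (control_RT), 7 of controls after cold (control_4C), 9 of knockouts at room temperature (KO_RT) and 9 of knockouts after cold (KO_4C). The labels name no strain and no knockout allele, and they leave unsaid whether the same animals gave muscle at both temperatures, so p-values measure the spread between these samples. Ucp1 itself was not analysed here, and the genotype labels were therefore not checked by it.

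Glycogen is the glucose store of muscle fibres. Glycogenin primes each granule, glycogen synthase lengthens its chains and the branching enzyme adds branch points. Glycogen phosphorylase releases glucose 1-phosphate from the chain ends when phosphorylase kinase has activated it, and phosphoglucomutase interconverts glucose 1-phosphate and glucose 6-phosphate, so that it serves both directions. Fast fibres, which make up most of this muscle, draw heavily on the store during contraction.

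Transcripts were counted from their 3′ ends, and levels are given as CPM, the count relative to the scaled library total. The 32 libraries held between 7.28e+06 and 2.58e+07 counts, with group means from 1.31e+07 to 1.42e+07. Skeletal muscle markers were abundant throughout, with 10 of 10 listed genes measured and summed levels from 120431.5 to 229242.4 CPM per library. Several of them were called lower after cold, as given below with the other marker lists. Some libraries stood apart by a transcript-loss index, the mean log2 CPM of 76 genes picked because they were low in KO_RT replicate 3. The low index of that library was thus fixed by the choice of genes, and whether transcripts were lost was not tested. The index averaged 3.83 ± 0.73 in control_RT (SD, n = 7; range 2.63 to 4.70) and 5.35 ± 0.13 in control_4C (n = 7; range 5.17 to 5.53), so the control groups did not overlap. It averaged 4.81 ± 1.06 in KO_RT and 5.31 ± 0.20 in KO_4C (n = 9 each). The 4 libraries of lowest index were control_RT replicates 2 and 3 and the KO_RT libraries replicate 3 and column KO8 (which has no replicate number, since titles and descriptions number it differently), and results are given with and without them where that changes a call.

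After cold, the phosphorylase transcript Pygm and the phosphoglucomutase transcript Pgm1 were lower in both genotypes, while the synthase transcript Gys1 did not pass the test in either. In control rats 4 of the 6 genes were called lower and 0 higher, by edgeR's quasi-likelihood test with a Benjamini-Hochberg adjusted p under 0.05, against a background of 8.28% of all tested genes called lower, 12.4% called higher and 20.7% called in all. In knockout rats 2 were called lower and 1 higher, against 6.28% and 7.49% of all tested genes, or 13.8% in all. The median log2 change of the 6 genes was -0.33 in controls and -0.20 in knockouts, while that of all tested genes was 0.03 and 0.01. In bulk muscle a smaller share of a fibre type and less RNA per fibre cannot be told apart.

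**Figure D1:**
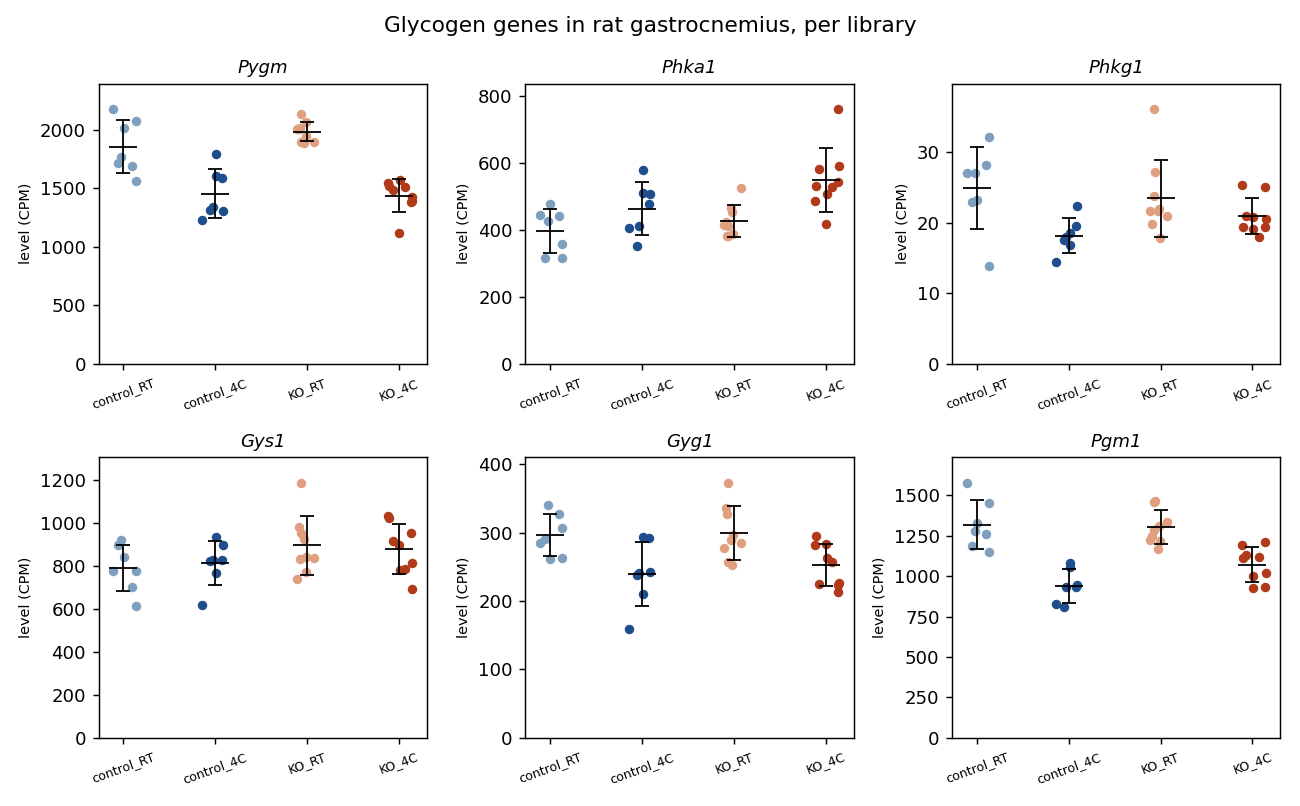
Level of each of the 6 glycogen genes in CPM (vertical axis, from 0) in every library of the 4 groups (points), with the mean and SD of each group (black). Pgm1 in control_4C lay wholly below control_RT, Pygm in KO_4C lay wholly below KO_RT, and Gys1 overlapped in every pair of groups.

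Pygm encodes the muscle isoform of glycogen phosphorylase, whose loss causes McArdle disease in humans. Its level ran from 1564.9 to 2174.5 CPM in control_RT, with a median of 1766.9, and from 1226.2 to 1791.7 CPM in control_4C, with a median of 1341.9. All 7 cold control libraries were below the room-temperature mean of 1855.5 CPM, and 4 of them were below every room-temperature library. The log2 change was -0.35 ± 0.09 (SE, edgeR adjusted p = 0.00375), and the level fell by 21.8%. In knockouts the level ran from 1889.0 to 2129.0 CPM at room temperature, with a median of 2003.9, and from 1114.7 to 1572.7 CPM after cold, with a median of 1482.9. These groups did not overlap, which held in the lower direction for 0.681% of all tested genes. The log2 change was -0.46 ± 0.08 (edgeR adjusted p = 6.05e-05), and the level fell by 27.5%.

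Phosphorylase kinase, the enzyme that activates phosphorylase, is a complex of alpha, beta and gamma subunits with calmodulin, and its transcripts did not move one way. Phka1, the alpha subunit of muscle that carries part of the complex's control by phosphorylation, ran from 315.8 to 477.8 CPM in control_RT (median 426.8) and from 350.5 to 579.9 CPM in control_4C (median 478.0). The control groups overlapped, and the log2 change of 0.22 ± 0.12 did not pass (edgeR adjusted p = 0.171). In knockouts Phka1 ran from 380.9 to 523.6 CPM at room temperature (median 415.5) and from 416.7 to 760.5 CPM after cold (median 532.2). There 8 of 9 cold libraries lay above the room-temperature mean and 6 lay above every room-temperature library. Phka1 was called higher by 0.36 ± 0.10 on the log2 scale (edgeR adjusted p = 0.0133), a level 28.7% higher.

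Phkg1, the catalytic gamma subunit of muscle, was the least counted of the 6 genes, with 144 to 516 counts per library. It ran from 13.9 to 32.1 CPM in control_RT (median 27.0) and from 14.4 to 22.4 CPM in control_4C (median 18). All 7 cold libraries were below the room-temperature mean, but the ranges overlapped, since 1 room-temperature library was lower than every cold one. The log2 change in controls was -0.45 ± 0.14 (edgeR adjusted p = 0.0193). In knockouts Phkg1 ran from 17.9 to 36.1 CPM at room temperature (median 21.7) and from 18 to 25.4 CPM after cold (median 20.5), and its change of -0.16 ± 0.12 did not pass (edgeR adjusted p = 0.446). The call in controls was lost without control_RT replicate 2 (edgeR adjusted p = 0.0586) and without the 4 low-index libraries (edgeR adjusted p = 0.0505).

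Phkb, the beta subunit of the complex, was looked up beside the others. It ran from 27.6 to 44.9 CPM in control_RT (median 35.9) and from 20.4 to 31.6 CPM in control_4C (median 25.3). In knockouts it ran from 25.9 to 48.3 CPM at room temperature (median 43.3) and from 24.7 to 28.9 CPM after cold (median 26.7). The groups overlapped in both genotypes, and Phkb was called lower in both, by a log2 change of -0.51 ± 0.12 in controls (edgeR adjusted p = 0.0022) and -0.58 ± 0.10 in knockouts (edgeR adjusted p = 0.000165). With the slow-fibre level of each library (the mean log2 CPM of the slow-fibre markers) as a covariate, Phkb passed in neither, at -0.31 and -0.39 (edgeR adjusted p = 0.271 and 0.125), and with the loss index it did not pass in controls (-0.28; edgeR adjusted p = 0.283).

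Gys1 encodes the muscle isoform of glycogen synthase. It ran from 615.6 to 923.7 CPM in control_RT (median 777.9), from 617.3 to 937.2 CPM in control_4C (median 826.7), from 739.0 to 1187.7 CPM in KO_RT (median 840.0) and from 691.4 to 1032.9 CPM in KO_4C (median 899.6). All 4 ranges overlapped. The log2 change with cold was 0.04 ± 0.11 in controls (edgeR adjusted p = 0.819; 95% interval -0.18 to 0.26) and -0.03 ± 0.09 in knockouts (edgeR adjusted p = 0.879; 95% interval -0.22 to 0.16).

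Gyg1 encodes glycogenin, the self-glucosylating primer of the granule. It ran from 261.9 to 340.4 CPM in control_RT (median 290.2) and from 158.5 to 294.3 CPM in control_4C (median 240.5). All 7 cold libraries were below the room-temperature mean and 5 were below every room-temperature library. The log2 change of -0.31 ± 0.11 was close to the threshold (edgeR adjusted p = 0.0407), and it no longer passed without control_RT replicate 2, 6 or 7 or control_4C replicate 2, 3 or 7, where the adjusted p ran from 0.0501 to 0.111. In knockouts Gyg1 ran from 253.0 to 372.9 CPM at room temperature (median 289.6) and from 213.3 to 295.8 CPM after cold (median 257.7). All 9 cold libraries were below the room-temperature mean, yet the change of -0.25 ± 0.10 did not pass (edgeR adjusted p = 0.0811). It passed without KO_4C replicate 6 (edgeR adjusted p = 0.0449) and without control_4C replicate 3 (edgeR adjusted p = 0.0463).

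Pgm1 encodes the phosphoglucomutase that stands between glycogen and glycolysis. It ran from 1148.8 to 1577.7 CPM in control_RT (median 1276.7) and from 807.3 to 1079.4 CPM in control_4C (median 930.9). These groups did not overlap, which held in the lower direction for 2.34% of all tested genes. The log2 change was -0.49 ± 0.08 (edgeR adjusted p = 0.00015), and the level fell by 28.7%. In knockouts Pgm1 ran from 1167.3 to 1463.1 CPM at room temperature (median 1288.6) and from 925.3 to 1211.1 CPM after cold (median 1113.0), with 7 of 9 cold libraries below every room-temperature one. The log2 change was -0.28 ± 0.07 (edgeR adjusted p = 0.0088), and the level fell by 17.7%.

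**Figure D2:**
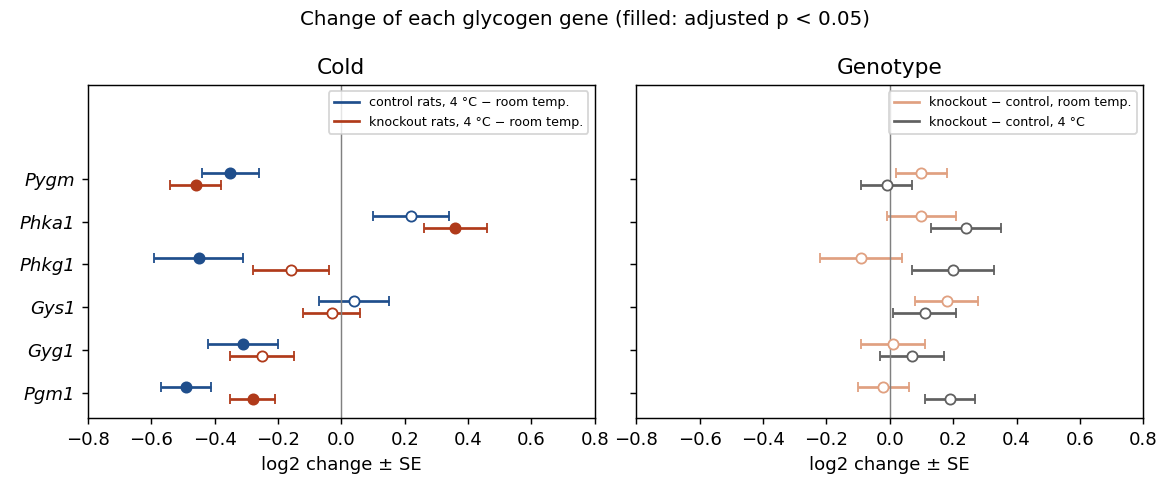
Log2 change ± SE of each glycogen gene (rows) with cold in each genotype (left) and with knockout at each temperature (right), filled where the adjusted p was under 0.05. With cold Pygm and Pgm1 are filled on the lower side in both genotypes and Gys1 lies within 0.04 of 0, and no point is filled for genotype.

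The stretches before the annotated starts of 4 of these genes are shown because their transcripts behaved differently in cold: Pygm and Pgm1 were called lower in both genotypes, Phka1 was called higher in knockouts, and Gys1 was not called. Each holds the 250 bases before the start in RefSeq (build GRCr8), 5′ to 3′ on the gene's strand, and capitals mark matches on either strand to the E-box (CANNTG), a motif bound by myogenic factors, and to the GC box (GGGCGG). They lie at chr1:213119555-213119804 (plus strand, Pygm), chr5:119710484-119710733 (plus, Pgm1), chrX:71778122-71778371 (minus, Phka1) and chr1:105051666-105051915 (plus, Gys1).
Pygm: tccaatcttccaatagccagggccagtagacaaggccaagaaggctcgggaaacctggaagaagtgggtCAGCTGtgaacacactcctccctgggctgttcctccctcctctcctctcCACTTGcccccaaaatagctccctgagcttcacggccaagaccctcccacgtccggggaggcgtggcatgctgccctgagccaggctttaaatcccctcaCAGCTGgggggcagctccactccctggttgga
Pgm1: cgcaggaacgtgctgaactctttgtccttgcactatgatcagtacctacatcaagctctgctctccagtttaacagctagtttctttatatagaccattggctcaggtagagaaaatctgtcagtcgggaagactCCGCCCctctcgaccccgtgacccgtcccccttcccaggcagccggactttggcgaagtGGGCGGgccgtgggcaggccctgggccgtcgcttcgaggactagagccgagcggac
Phka1: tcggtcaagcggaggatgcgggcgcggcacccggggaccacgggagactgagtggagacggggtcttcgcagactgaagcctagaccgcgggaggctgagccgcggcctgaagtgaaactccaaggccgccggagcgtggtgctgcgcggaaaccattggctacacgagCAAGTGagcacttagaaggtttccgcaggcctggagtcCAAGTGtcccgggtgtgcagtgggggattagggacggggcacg
Gys1: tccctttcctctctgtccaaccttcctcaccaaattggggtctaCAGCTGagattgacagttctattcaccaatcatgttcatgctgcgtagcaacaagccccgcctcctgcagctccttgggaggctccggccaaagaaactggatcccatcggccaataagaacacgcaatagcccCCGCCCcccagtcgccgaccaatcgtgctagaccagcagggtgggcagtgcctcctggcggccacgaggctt

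The Pygm stretch held 3 E-boxes, which start 181, 132 and 32 bases before the annotated start. At least as many were found in 11.5% of 33469 rat promoter windows of the same length. Pgm1 held none, while 65.5% of the windows held at least 1, and it had 2 GC boxes, a number reached in 14.8%. Phka1 had 2 E-boxes (30.8%), and Gys1 had 1 E-box and 1 GC box, the latter present in 30.5% of windows. Of the other motifs searched on both strands, CATTCC (the MCAT element, in 12.1% of windows) and AAGGTCA (a core motif of estrogen-related receptors, in 4.0%) matched in none of the 6 genes, and TGACG (a core motif of cAMP response elements, in 18.2%) matched in Gyg1 alone, where it overlaps an E-box. A match is a string of letters and not a binding site.

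Because Pygm and Gys1 encode opposing steps, their counts were set against each other within each library, which removes the scaling between libraries. The log2 ratio of Pygm to Gys1 counts ran from 0.93 to 1.48 in control_RT and from 0.53 to 1.06 in control_4C. It ran from 0.68 to 1.44 in KO_RT and from 0.31 to 1.04 in KO_4C. The cold ranges overlapped the room-temperature ranges in both genotypes, with 3 of 7 cold control libraries and 4 of 9 cold knockout libraries below every room-temperature one. The mean fell from 1.23 ± 0.22 to 0.83 ± 0.20 in controls (SD, n = 7 each), a difference of -0.40 (two-sided exact permutation test, p = 0.00816; 0.0163 adjusted over 4 contrasts). It fell from 1.16 ± 0.23 to 0.72 ± 0.25 in knockouts (n = 9 each), a difference of -0.44 (exact permutation p = 0.00177; adjusted 0.00708). Without the 4 low-index libraries the difference in controls was -0.31 and no longer passed (exact permutation, adjusted p = 0.0606).

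**Figure D3:**
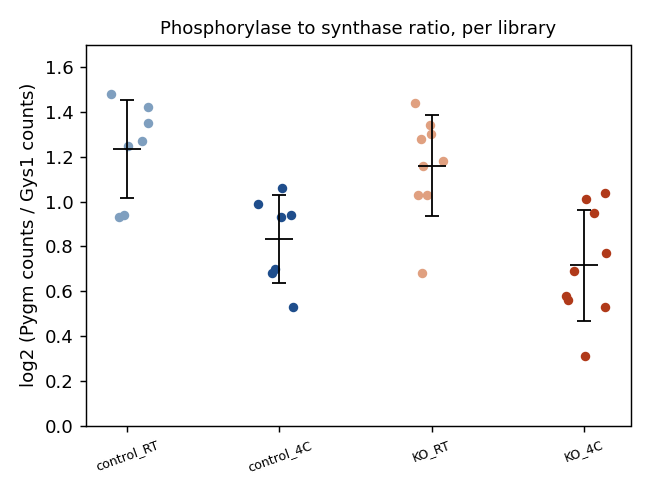
Log2 ratio of Pygm to Gys1 counts (vertical axis) in each library of the 4 groups (points), with the mean and SD of each group (black). The means are 1.23 and 1.16 at room temperature and 0.83 and 0.72 after cold, with overlapping ranges.

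Knockout and control rats were compared at each temperature. None of the 6 genes was called at room temperature, where 2.61% of all tested genes were called, or at 4 °C, where 0.0518% were, by edgeR's quasi-likelihood test. At an unadjusted p under 0.05 the count was 0 at room temperature and 2 at 4 °C (Phka1 and Pgm1). Of all 11594 tested genes, 1989 and 1695 had such a p at those temperatures. DESeq2 called 0 of the 6 at both. The differences of knockout from control ran from -0.09 ± 0.13 (Phkg1) to 0.18 ± 0.10 (Gys1) on the log2 scale at room temperature, and from -0.01 ± 0.08 (Pygm) to 0.24 ± 0.11 (Phka1) at 4 °C. The 95% interval of Pygm was -0.07 to 0.27 at room temperature and -0.18 to 0.15 at 4 °C. The Pygm to Gys1 log2 ratio differed by -0.07 at room temperature (exact permutation p = 0.521) and by -0.12 at 4 °C (exact permutation p = 0.322).

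Whether the cold change itself differed between genotypes was tested as an interaction, which called 0.0259% of all genes and none of the 6. At an unadjusted p under 0.05 there were 0 of the 6, beside 1499 of all 11594 tested genes, and DESeq2 called 0 of the 6. The cold change in knockouts minus that in controls was 0.30 ± 0.19 for Phkg1 (edgeR adjusted p = 0.522; 95% interval -0.09 to 0.68), 0.21 ± 0.11 for Pgm1 (edgeR adjusted p = 0.446; -0.02 to 0.44), 0.14 ± 0.15 for Phka1 (edgeR adjusted p = 0.742; -0.18 to 0.46) and -0.11 ± 0.12 for Pygm (edgeR adjusted p = 0.729; -0.35 to 0.13). Calls that were made in 1 genotype alone, for Phka1, Phkg1 and Gyg1, are therefore not shown to differ between genotypes.

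The rest of the pathway was described from lists of enzymes, isoforms, phosphatase subunits and kinases. Of 47 genes listed beside the 6, 38 were tested. In controls 5 were called higher and 5 lower after cold, with a median log2 change of -0.05, where 12.4% of all tested genes were called higher and 8.28% lower. In knockouts 3 were higher and 5 lower, with a median of -0.11, against 7.49% and 6.28% of all tested genes. Gbe1, the branching enzyme, rose in both genotypes. It ran from 79.8 to 135.9 CPM in control_RT (median 115.6) and from 150.6 to 276.8 CPM in control_4C (median 187.9). The control groups did not overlap, which held in the higher direction for 3.42% of all tested genes. In knockouts Gbe1 ran from 96.4 to 186.4 CPM (median 138.5) and from 153.3 to 263.8 CPM after cold (median 194.2). Its log2 change was 0.84 ± 0.14 in controls (edgeR adjusted p = 5.85e-05) and 0.57 ± 0.12 in knockouts (edgeR adjusted p = 0.000999). With the slow-fibre level as a covariate, Gbe1 passed in neither, at 0.52 in controls (edgeR adjusted p = 0.0803) and 0.29 in knockouts (edgeR adjusted p = 0.344). Ugp2, which makes the UDP-glucose that synthase uses, did not pass in either genotype, with a log2 change of 0.05 ± 0.11 in controls and -0.06 ± 0.10 in knockouts.

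**Figure D4:**
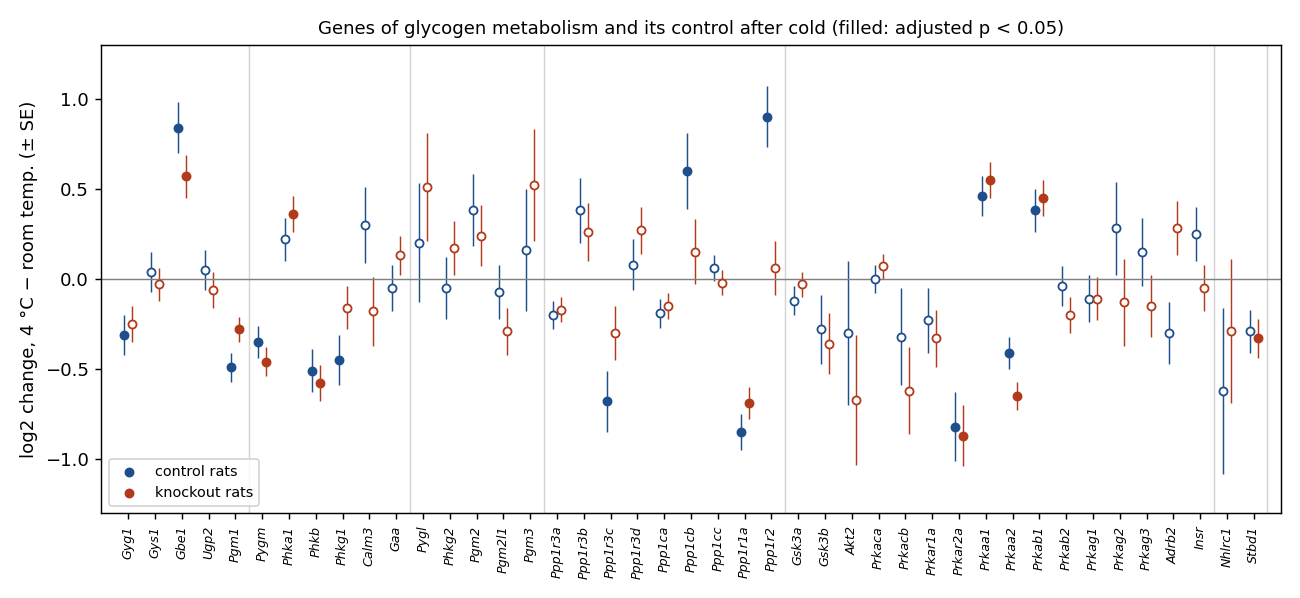
Log2 change ± SE with cold (vertical axis) of the 6 genes and tested genes of the pathway and its control (horizontal axis), in control rats (blue) and knockout rats (red), filled where the adjusted p was under 0.05. Grey lines divide the lists, in order synthesis, breakdown, other isoforms, phosphatase subunits, kinases and receptors, and glycogen quality control. Gbe1, Prkaa1 and Prkab1 are filled above 0 and Pygm, Pgm1, Phkb, Ppp1r1a, Prkaa2 and Prkar2a below 0 in both genotypes.

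Among regulators, Ppp1r1a, an inhibitor of protein phosphatase 1 that acts once phosphorylated by protein kinase A, ran from 574.2 to 796.3 CPM in control_RT and from 327.5 to 458.8 CPM in control_4C, with no overlap, as in 2.34% of all tested genes in that direction. Its log2 change was -0.85 ± 0.10 in controls (edgeR adjusted p = 1.59e-06) and -0.69 ± 0.09 in knockouts (edgeR adjusted p = 1.17e-06). The catalytic subunits of AMP-activated kinase moved in opposite directions. Prkaa2, the alpha 2 subunit, fell by 0.41 ± 0.09 and 0.65 ± 0.08 on the log2 scale in controls and knockouts (edgeR adjusted p = 0.00109 and 5.85e-07), and Prkaa1, the alpha 1 subunit, rose by 0.46 ± 0.11 and 0.55 ± 0.10 (edgeR adjusted p = 0.00396 and 0.000207). Prkab1, a beta subunit of that kinase, rose by 0.45 ± 0.10 in knockouts (edgeR adjusted p = 0.00254) and by 0.38 ± 0.12 in controls (edgeR adjusted p = 0.0205). Prkar2a, a regulatory subunit of protein kinase A, fell by 0.82 ± 0.19 in controls (edgeR adjusted p = 0.00203) and by 0.87 ± 0.17 in knockouts (edgeR adjusted p = 4e-04). With the slow-fibre covariate Prkaa1 did not pass in controls (0.15; edgeR adjusted p = 0.608) or knockouts (0.28; edgeR adjusted p = 0.282), while Prkaa2 passed in knockouts and not in controls (-0.41; edgeR adjusted p = 0.0635). Prkab1 (0.16 and 0.26) and Prkar2a (-0.65 and -0.72) then passed in neither (edgeR adjusted p = 0.633 and 0.367, and 0.147 and 0.0741). With the loss index, Prkaa1 (0.30), Prkab1 (0.21) and Prkar2a (-0.33) did not pass in controls (edgeR adjusted p = 0.262, 0.467 and 0.398), and without the 4 low-index libraries Prkab1 did not either (0.29; edgeR adjusted p = 0.107). Ppp1r1a passed in both genotypes in each of these settings.

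Ppp1r2, phosphatase inhibitor 2, was called higher in cold controls by 0.90 ± 0.17 on the log2 scale (edgeR adjusted p = 0.000448), while its change in knockouts was 0.06 ± 0.15 (edgeR adjusted p = 0.851). The call in cold controls was lost with the loss index (0.34; edgeR adjusted p = 0.272) and with the slow-fibre covariate (0.57; edgeR adjusted p = 0.184). It was also the 1 pathway gene called between genotypes, higher in KO_RT than in control_RT by 0.75 ± 0.17 (edgeR adjusted p = 0.013), and the interaction for it was -0.84 ± 0.23 (edgeR adjusted p = 0.118). The room-temperature call did not hold when those groups were fitted alone (edgeR adjusted p = 0.0911) or with the loss index as a covariate (edgeR adjusted p = 0.276). Of the other pathway genes called, Ppp1cb (0.60 ± 0.21) rose and Ppp1r3c (-0.68 ± 0.17), a glycogen-targeting subunit of the phosphatase, fell in controls (edgeR adjusted p = 0.0362 and 0.00389), and Stbd1, which ties glycogen to autophagy, fell in knockouts (-0.33 ± 0.11; edgeR adjusted p = 0.0311). The direction of Ppp1cb reversed to -0.24 with the loss index as a covariate, and its call was lost without any 1 of control_RT replicates 2, 3, 5 and 6 and control_4C replicates 1, 4 and 5. In controls Ppp1r3c passed with neither covariate (edgeR adjusted p = 0.26 with the loss index and 0.0842 with the slow-fibre level). In knockouts neither Ppp1cb (0.15 ± 0.18) nor Ppp1r3c (-0.30 ± 0.15) was called (edgeR adjusted p = 0.636 and 0.188). Without KO_4C replicate 7, Ppp1r3c passed there (-0.43; edgeR adjusted p = 0.032). The interactions were -0.45 ± 0.27 for Ppp1cb and 0.38 ± 0.22 for Ppp1r3c (edgeR adjusted p = 0.509 and 0.485). Stbd1 in knockouts did not pass with the slow-fibre covariate (edgeR adjusted p = 0.165) or without KO_RT replicate 8 or KO_4C replicate 8 (edgeR adjusted p = 0.051 and 0.0738). Its change in controls was -0.29 ± 0.12 and was not called (edgeR adjusted p = 0.0778). There it passed in 3 of 10 other settings (edgeR): without the 4 low-index libraries (-0.36; adjusted p = 0.0179), with the loss index (-0.53; 0.0262) and in the compared groups alone (-0.31; 0.0352). The interaction for Stbd1 was -0.04 ± 0.16 (edgeR adjusted p = 0.949).

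Other isoforms of the same enzymes were counted as well. Phkg2, the other gamma subunit, averaged 13.8 to 15.4 CPM over the groups, beside 18.2 to 24.9 CPM for Phkg1, in tags that are counted at the 3′ end and not per length. Pygl, the liver phosphorylase, averaged 1.51 to 2.74 CPM, Pgm2 averaged 3.22 to 4.19, Pgm2l1 averaged 15 to 19.1 and Pgm3 averaged 0.935 to 1.61. None of these 5 was called in any comparison by edgeR. At an unadjusted p under 0.05 there was 1 in cold knockouts (Pgm2l1) and 1 between genotypes at room temperature (Pygl). Of all 11594 tested genes, 3138 and 1989 had such a p in those comparisons. The other isoform genes listed were not analysed here.

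Within groups, the 6 genes varied together to different degrees. After each group's mean was subtracted, Pygm and Pgm1 had a Pearson correlation of 0.70 and a Spearman correlation of 0.66 of log2 CPM over the 32 libraries, and Gys1 and Gyg1 had 0.60 and 0.50. Pygm and Gys1 had 0.21 and 0.14. Among 7121 genes, those most like Pgm1 were Actn3 (0.74), Pvalb (0.72) and Tpm1 (0.70), the first 2 of which are markers of fast fibres. Those most like Pygm were led by Cacnb1 (0.77), the calcium channel beta subunit of muscle, and those most like Phka1 by Prkab2 (0.77), a beta subunit of AMP-activated kinase. Gys1 was most like Asb10 (0.86), Gyg1 most like Prkcq (0.78) and Phkg1 most like Psmd13 (0.80). These values are Pearson correlations over libraries that share depth, tissue composition and RNA quality, and they are given as a description.

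Several marker lists moved with cold beside the glycogen genes. Of 11 slow-fibre markers, 10 were called higher in both genotypes, with a median log2 change of 0.94 in controls and 0.77 in knockouts, and their summed level ran from 7105.5 to 13430.3 CPM in control_RT and from 13575.7 to 23078.9 CPM in control_4C. In knockouts the sum ran from 6901.0 to 16267.5 CPM at room temperature and from 11406.4 to 23253.3 CPM after cold. Of 10 fast-fibre markers, 5 in controls and 4 in knockouts were called lower, with medians of -0.40 and -0.28, beside the values of -0.35 and -0.46 for Pygm and -0.49 and -0.28 for Pgm1. The fast-fibre sum ran from 98284.0 to 137787.6 CPM in control_RT and from 76451.0 to 104604.1 CPM in control_4C, and from 103179.9 to 167614.2 and 82760.6 to 133079.3 CPM in the knockout groups. Of the 10 skeletal muscle markers, some of which are also on the fast-fibre list, 5 in controls and 4 in knockouts were called lower. Their median log2 change was -0.32 in controls and -0.20 in knockouts, beside -0.33 and -0.20 for the 6 glycogen genes. Adipocyte markers were higher for 3 of 6 genes in controls and 2 of 6 in knockouts, and macrophage markers for 3 of 6 in each. Erythroid markers were higher for 2 of 3 genes in controls (median log2 change 2.14) and 1 of 3 in knockouts (1.20), and smooth muscle markers for 3 of 5 in controls (0.64) and 0 of 5 in knockouts (0.19). The summed erythroid level ran from 1.5 to 19.2 CPM in control_RT and from 20.5 to 179.8 CPM in control_4C. The summed adipocyte level was at most 551.0 CPM and the summed macrophage level at most 140.0 CPM in any library. The part of these lists in the glycogen results was not tested beyond the following covariates.

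With the mean slow-fibre level of each library as a covariate, Pygm kept its call in knockouts (-0.39 ± 0.11; edgeR adjusted p = 0.0299) but not in controls (-0.26 ± 0.13; edgeR adjusted p = 0.221), and Pgm1 lost it in controls (-0.35 ± 0.12; edgeR adjusted p = 0.0848) and knockouts (-0.16 ± 0.10; edgeR adjusted p = 0.462). Gyg1 then passed in both genotypes, at -0.58 ± 0.15 and -0.48 ± 0.13 (edgeR adjusted p = 0.0211 and 0.0224), and Phka1 in knockouts did not (0.43 ± 0.15; edgeR adjusted p = 0.101). With the loss index as a covariate none of the 4 calls in controls held, with edgeR adjusted p of 0.159 for Pygm, 0.8 for Phkg1, 0.364 for Gyg1 and 0.0511 for Pgm1, while the 3 calls in knockouts did. The index separates the control groups completely, so in controls it cannot be told apart from cold. The slow-fibre level separates them too, at most 9.57 in control_RT and at least 9.61 in control_4C. In controls it therefore cannot be told apart from cold either, which holds for every control result above that used it as a covariate. In knockouts the slow-fibre level ran from 8.43 to 9.68 at room temperature and from 9.43 to 10.23 after cold. Those ranges overlapped only in part, so in knockouts the covariate can be told apart from cold only in part. Without the 4 low-index libraries Pygm (-0.28 ± 0.09; edgeR adjusted p = 0.0378) and Pgm1 (-0.41 ± 0.09; edgeR adjusted p = 0.000923) were still called lower in controls. The control_RT libraries that remained had a loss index of 3.61 to 4.70, below the lowest of control_4C (5.17). In that setting too, the index cannot be told apart from cold in controls.

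**Figure D5:**
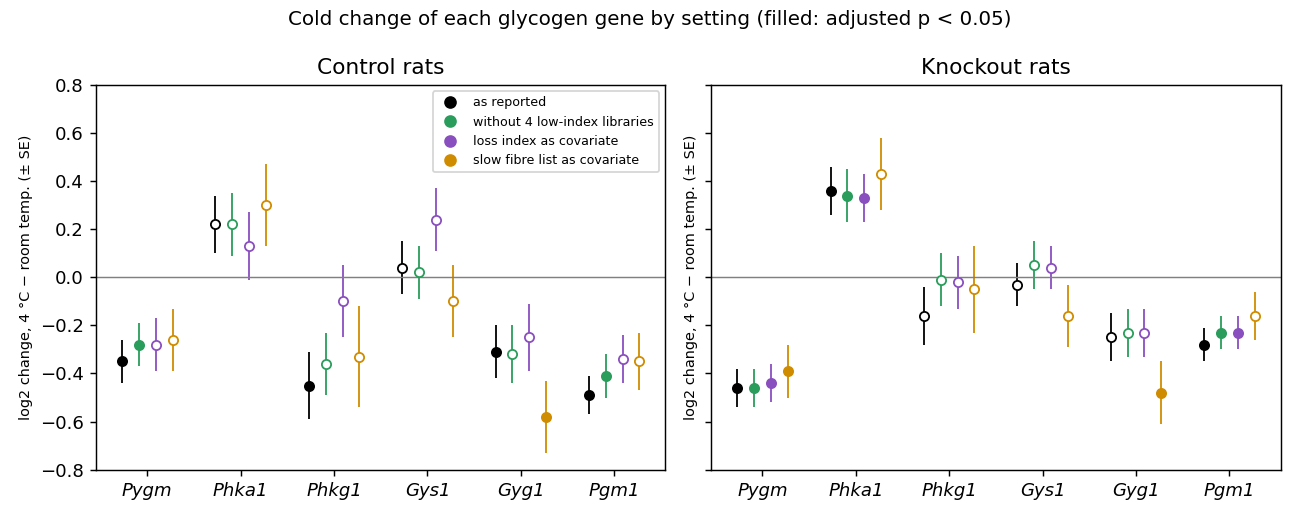
Log2 change ± SE with cold (vertical axis) of each glycogen gene in control rats (left) and knockout rats (right), as reported (black), without the 4 low-index libraries (green), with the loss index as a covariate (purple) and with the slow-fibre level as a covariate (orange), filled where the adjusted p was under 0.05. Pygm is filled in all 4 settings in knockouts and in 2 of 4 in controls.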

How the data were processed

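Whole-number counts per gene were deposited by the authors for 32 libraries of 3′ tags (Lexogen QuantSeq, per the labels' protocols), beside normalised signal, which the authors made by dividing each count by 1 size factor per library (0.523 to 2.06). R 3.4.3, DESeq2 1.18.1 and build Rnor_6.0 are named in the submitters' processing notes; aligner and counter were not given in the sources used here. No odd count occurred, so each tag may have been counted 2 times, and the true depth may be smaller than the counts show. Counts and totals are given as deposited. Deposited totals ran from 7.28e+06 to 2.58e+07.

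The deposited counts were fitted with edgeR 4.0.16 (limma 3.58.1, R 4.3.3) after filterByExpr (minimum count 10), with TMM factors, 1 mean per group over all libraries, the robust quasi-likelihood F test and Benjamini-Hochberg adjustment over 11594 genes per contrast at 0.05. SE is the absolute log2 change over the square root of F. CPM for likeness used a prior count of 2 and genes of at least 5 CPM. Symbols came from the deposited table, and promoters from RefSeq (all 6 genes matched). The members and lists were chosen with earlier results of these data known. The named pathway genes were, per pairwise contrast, the 3 of smallest p in each direction past the threshold, plus isoform partners and Phkb; Ugp2, Ppp1cb, Ppp1r3c and Stbd1 were added after their values were seen, and 1 pathway gene is counted but not reported here. No pair of libraries in a group was a duplicate (smallest chi-square per degree of freedom 6.19).

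The fit was tested on simulated data before use. Its pass mark for recovered genes was lowered after a first run missed it; the estimates showed no visible bias, but moderate changes were often missed there, so an uncalled gene is not shown to be unchanged. Alternatives were DESeq2 1.42.0, RLE factors, TMM factors that leave out the 20 most abundant genes, untested low genes let in, the compared groups alone, a replicate block, covariates, counts divided by 2, and leaving out libraries.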

Additional observations from a re-analysis of the deposited data

Results flagged for a closer look

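Of 60 groups of libraries examined (the 6 glycogen genes, the Pygm to Gys1 ratio and the named pathway genes), 4 held a library farther from the rest than Dixon's 95% critical value allows; chance alone marks about 1 group in 20. In KO_4C replicate 8, Pygm was at 1114.7 CPM, against 1378.6 CPM in the nearest library of the group. In KO_4C replicate 7, Phka1 was at 760.5 CPM, against 590.9 CPM in the nearest, and Ppp1r2 was at 55.0 CPM, against 39.5 CPM. In the KO_RT library of column KO8, Ppp1r1a was at 855.6 CPM, against 656.9 CPM in the nearest; this is 1 of the 4 low-index libraries. Without any 1 library, Pygm stayed lower and Phka1 stayed higher in cold knockouts past the threshold (edgeR).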

How the results depend on the processing

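In controls the count of glycogen genes called lower after cold (4) was 2 without the 4 low-index libraries, 1 with the slow-fibre covariate and 0 with the loss index covariate, and 2 to 4 with 1 library left out. With the slow-fibre covariate the 1 gene called lower in controls was Gyg1. In knockouts the count lower was 2 in the other settings and 2 to 3 with 1 library left out. With the slow-fibre covariate those 2 were Pygm and Gyg1, and Pgm1 was not called. The count higher in knockouts (1) was 0 with the slow-fibre covariate and the replicate block and 1 whichever library was left out. The Pygm to Gys1 log2 ratio in controls was -0.31 (exact permutation, adjusted p = 0.0606) without the 4 libraries and -0.45 to -0.35 with 1 left out; in knockouts it was -0.50 to -0.39. Between genotypes at room temperature the ratio reversed to 0.08 without the 4 libraries. The cause of these changes was not tested.

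Same-numbered libraries did not all deviate together (correlations across temperatures -0.29 to 0.33 in controls and -0.01 to 0.21 in knockouts, across genotypes -0.17 to 0.33 at room temperature and -0.11 to 0.35 at 4 °C; best with the own number in 1 of 7, 1 of 7, 1 of 5 and 3 of 7), so the numbers were not taken to pair samples. With a replicate block, the KO_RT columns KO8 and KO9 having no number, the ratio differences were -0.40 in controls and -0.47 in knockouts (exact sign-flip test, adjusted p = 0.0625 each) and 0.01, reversed, between genotypes at room temperature. Phka1 in cold knockouts no longer passed (0.28, edgeR adjusted p = 0.0875), and Gys1 in cold knockouts (0.02), Gyg1 between genotypes at room temperature (-0.12) and Pygm at 4 °C (0.01) reversed.

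Pathway counts in cold controls were 0 higher and 1 lower with the slow-fibre covariate, 1 and 3 with the loss index covariate, and 3 to 6 higher with 1 library left out (3 without control_RT replicate 3 or 6 or control_4C replicate 4). In cold knockouts they were 0 higher and 2 lower with the slow-fibre covariate. Pathway genes higher in KO_RT numbered 0 in the compared groups alone and with the loss index covariate, 2 without the 4 libraries, and 1 to 3 with 1 left out (3 without KO_RT replicate 3, 2 without column KO8); the count lower was 0 to 2 (2 without column KO8). At 4 °C the count higher was 0 to 1 (1 without control_4C replicate 7). For the interaction 1 was lower with DESeq2 and without the 4 libraries, and 0 to 1 with 1 left out.

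Uncalled values near 0 that reversed were Gys1 in cold controls (-0.10, slow-fibre covariate), Gys1 in cold knockouts (0.05 without the 4 libraries, 0.04 with the loss index) and in the interaction (0.03 without the 4 libraries), and, between genotypes at room temperature, Gyg1 (-0.03) and Pgm1 (0 to 2 decimals) without the 4 libraries, and Phkg1 (0.13) and Pgm1 (0.07) with the loss index. Reversals of pathway genes were Ppp1cb in cold controls (-0.24) and knockouts (-0.04), Ppp1r2 in cold knockouts (-0.10) and Ugp2 in cold controls (-0.07) with the loss index, Ppp1cb (-0.25) and Ppp1r2 (-0.20) in cold knockouts with the slow-fibre covariate, and Ppp1cb (-0.07) and Ppp1r2 (-0.09) there without the 4 libraries. With 1 library left out, values that crossed 0 ran from -0.03 to 0.10 (Gys1) in cold controls, -0.08 to 0.02 (Gys1) in cold knockouts, -0.05 to 0.04 (Gyg1) and -0.06 to 0.02 (Pgm1) between genotypes at room temperature, -0.07 to 0.04 (Pygm) and 0 to 0.12 (Gyg1) at 4 °C, and -0.02 to 0.12 (Gyg1) for the interaction. Gyg1 in controls also missed the threshold in the compared groups alone (edgeR adjusted p = 0.0508) and without the 4 libraries (0.0535). Over all genes, 2399 calls in cold controls became 451 with the slow-fibre and 381 with the loss index covariate, and 1596 in cold knockouts became 456 with the slow-fibre covariate. Between genotypes, 6 calls by edgeR at 4 °C were 428 by DESeq2, 303 at room temperature were 574 by DESeq2 and 0 in the compared groups alone, and 3 for the interaction were 107 by DESeq2 and 288 without the 4 libraries. Within edgeR the count at 4 °C also varied. It was 0 in the compared groups alone and with the replicate block, 121 with RLE factors and 398 with the slow-fibre covariate.

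The loss index was rebuilt, and its covariate fit chosen, after seeing the data; the planned fit with the gene list of an earlier analysis was not run. Depth limits Phkg1, with as few as 144 deposited counts in a library, and the isoforms of a few CPM: there counting error is a sizeable part of the spread between libraries.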
